A study of Mus musculus with 42 samples.

Results

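The genes described here encode the classical axon guidance cues and their receptors: semaphorins with plexins and neuropilins, ephrins with Eph receptors, Slits with Robos, and netrins with Dcc and Unc5 receptors. They were chosen by gene symbol alone, from probe sets annotated to a single symbol. The rule itself uses no measured value, but it was set with earlier results of these data known. Of 18336 genes with such a probe set on either array type, 69 were members. The MG-U74Av2 array held 44 of them, read by 57 probe sets, and the Mouse430_2 array held all 69, read by 152 probe sets. One symbol, Plxna4os1, is an antisense RNA that shares the plexin stem, and it was not tested because its signal was low.

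Guidance cues steer growing axons by attracting or repelling the growth cone. Semaphorins bind plexins, and most secreted ones need a neuropilin as the ligand-binding partner. Ephrins are anchored in the membrane and bind Eph receptor tyrosine kinases, with signals running into both cells. Slits repel axons through Robo receptors, and netrins attract axons through Dcc and repel them when an Unc5 receptor takes part. In adult sensory ganglia many of these genes stay expressed, and several also act in blood vessels and immune cells.

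The study compared ganglia of BALB/c mice kept in ordinary housing, with no treatment or transgene named and no age given. Sensory neurons of the spinal nerves lie in the dorsal root ganglia (DRG), and vagal sensory neurons that supply the internal organs lie in the nodose ganglion (NG). In the first experiment whole DRG (n = 5) and whole NG (n = 7) were lysed and read on MG-U74Av2. In the second, roughly 150 neurons per sample were cut from sections by laser and read on MG-U74Av2 (DRG n = 5, NG n = 5). In the third, neurons captured the same way were read on Mouse430_2 (DRG n = 9, NG n = 11). The captured cells are labelled visceral sensory neurons, and the labels do not tell how such cells were identified in the sections. Labelling used about 12 µg of RNA, which is named as amplified only for captured neurons on MG-U74Av2. The sample descriptions call every sample laser captured, whereas the first experiment's extraction text speaks of whole ganglia, which was followed here. The labels do not tie samples to separate animals. The p-values therefore reflect only how these samples vary, and that variation may be technical.

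Signals are MAS5 intensities in arbitrary units, with all arrays of a type brought to a common trimmed mean. They compare samples for 1 probe set and do not rank genes against each other. A gene was called when the limma adjusted p of NG against DRG was under 0.05. A log2 difference is NG minus DRG unless stated, so negative values mean higher in DRG. Differences are on the log2(signal + pseudocount) scale, which understates the change of dim genes.

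Of 5 tested DRG identity genes on Mouse430_2, 4 were higher in DRG and Hoxc10 was not called (42.2 in DRG and 42.7 in NG). The trunk gene Hoxa9 averaged 697 in DRG and 4.79 in NG, the somatosensory factor Prrxl1 2322 and 244, and the visceral factor Phox2a, the only NG identity gene tested, 30.2 and 176. On MG-U74Av2 Hoxa9 was higher in whole DRG (-1.46) and not called in captured neurons (-0.64, adjusted p = 0.0638), and Hoxc8 was called in neither. Within each group the median correlation of an array with its fellows lay between 0.902 and 0.981, and no array stood far apart. The 2 captured experiments were not independent. All 10 captured samples on MG-U74Av2 shared a ganglion and number with a sample on Mouse430_2, and each deviated from its group most like that sample (correlations over 5326 genes of 0.203 to 0.326 in DRG and 0.405 to 0.471 in NG). Markers of other cells also differed between ganglia. On Mouse430_2, 4 of 11 tested endothelial and mural markers were higher in DRG and 2 in NG, with summed signals of 1698 to 3307 in DRG and 997 to 1756 in NG. A large part of the DRG sum was the single gene Rgs5, which averaged 1268 in DRG and 162 in NG. Of 11 satellite glia and Schwann cell markers, 5 were higher in DRG and 1 in NG, with sums of 14910 to 18040 and 13760 to 16650. In whole ganglia NG exceeded DRG for 5 of 10 endothelial and mural markers and DRG exceeded NG for 2, with sums of 982 to 1290 in DRG and 1360 to 2316 in NG. There, 3 of 7 macrophage and lymphocyte markers were higher in NG and none in DRG, with sums of 689 to 1251 in DRG and 1230 to 1915 in NG. In captured neurons on MG-U74Av2, DRG exceeded NG for 3 of 6 endothelial and mural markers, among them Cdh5 (-1.80). NG exceeded DRG for 1 of them, Kdr (1.635). Of 10 glial markers there, 3 were higher in DRG, among them Gja1 (-2.28) and S100b (-1.59), and none in NG. The part of these other cells in the differences below was not tested.

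Guidance genes divided in both directions between the ganglia, and most of them did not pass the test. Of the 69 members, 63 were tested in at least 1 comparison and 30 were called in at least 1. In captured neurons on Mouse430_2, 10 of the 62 tested members were higher in NG, 14 were higher in DRG and 38 were not called. Over all genes tested there, 26.6% were called, 13% higher in NG and 13.6% higher in DRG. The members' median difference was -0.16, beside -0.019 over all genes. On unscaled deposited values the split was 6 higher in NG and 13 higher in DRG. The groups did not overlap for 8 members, against a background of 5.01%, and 13 members were called with a difference of at least 1 in size, against 8.63%. Of all genes with a probe set, 76.7% were tested.

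In captured neurons on MG-U74Av2, 24 members were tested, of which 2 were higher in NG and 6 in DRG. The background was 22.8% called, 10.9% higher in NG and 11.9% higher in DRG. The members' median difference was -0.027 and that of all genes 0.043. The groups did not overlap for 6 members, with 17% of all genes so separated, and 6 members were called with a difference of at least 1, with 7.54% of all genes. Of all genes with a probe set, 70% were tested. In whole ganglia, NG was higher for 4 of 27 tested members and DRG for 7, with 37.4% of all genes called, 20.5% higher in NG and 16.9% higher in DRG. There the members' median was 0.095 and that of all genes 0.045. In whole ganglia 7 members did not overlap between groups, beside 19.7% of all genes, and 5 were called with a difference of at least 1, beside 4.96%. Tested were 71.4% of the genes with a probe set. On unscaled deposited values the whole-ganglion split was 2 higher in NG and 8 higher in DRG. With samples of mixed cells, fewer cells of a type and less RNA per cell cannot be told apart.

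Of the 22 members tested in all 3 comparisons, 4 were called in the same direction each time. Unc5c, a repulsive netrin receptor, was the only member higher in NG in all 3. Efna1, an ephrin-A ligand, Nrp1, a semaphorin co-receptor, and Plxna2, a plexin, were higher in DRG in all 3. Of all 5170 genes tested in all 3, 4.04% were called higher in NG each time and 3.79% higher in DRG, and the captured experiments share sample numbers. No member was called in opposite directions in different comparisons.

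**Figure D1:**
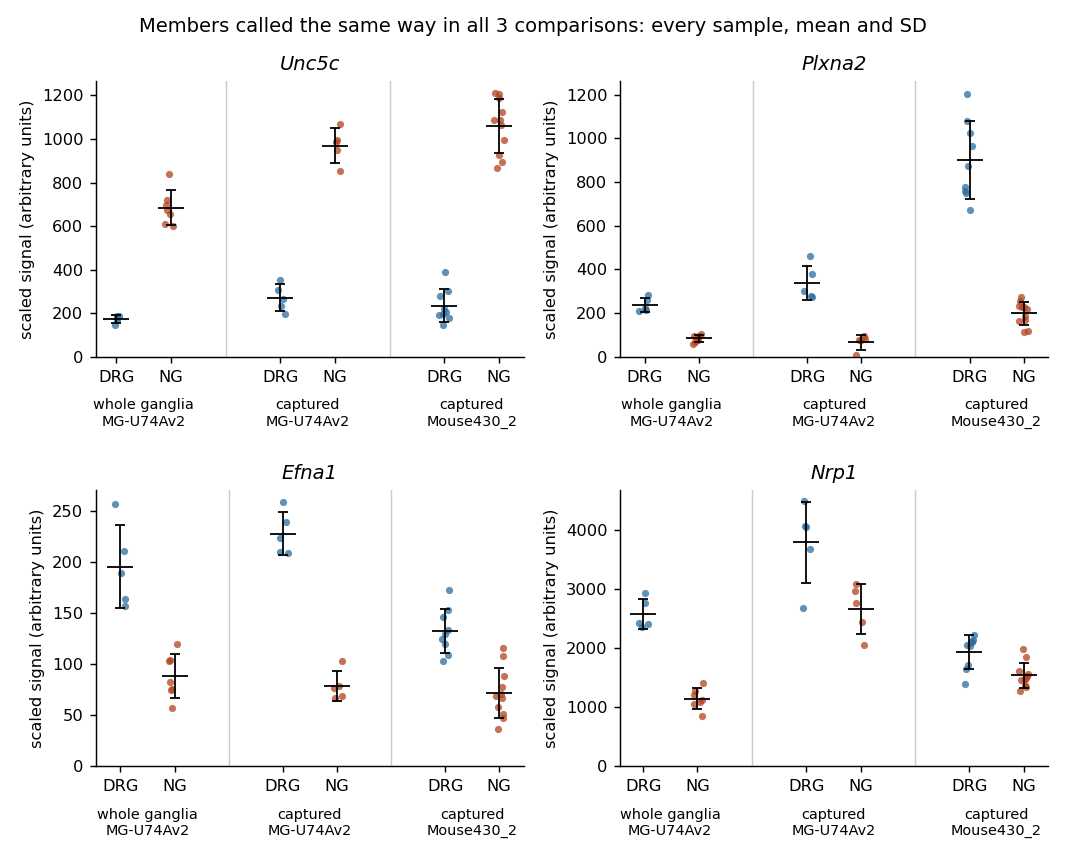
Scaled signal in every sample (points), with group mean and SD (bars), for Unc5c, Plxna2, Efna1 and Nrp1 in DRG and NG of the 3 experiments. Levels are comparable within an array type, not between array types. Unc5c and Plxna2 separate the ganglia completely in each experiment, with whole-ganglion means of 175 in DRG and 686 in NG for Unc5c and 238 and 85.4 for Plxna2, whereas Efna1 and Nrp1 overlap on Mouse430_2.

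Semaphorins, the ligands of plexins, were called in both directions. On Mouse430_2, 19 of the 20 semaphorins with a probe set were tested, of which 4 were higher in DRG, 2 were higher in NG and 13 were not called, beside 13.6% and 13% of all genes. The 4 were the membrane-bound Sema7a, Sema6d and Sema4a and the secreted Sema3f. The 2 higher in NG were the secreted Sema3c and Sema3b.

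Sema7a, a lipid-anchored semaphorin that also acts on immune cells, ranged from 92.4 through a median of 147 to 313 in DRG neurons and from 23.7 through 67.2 to 105 in NG neurons. Only NG 001 came within the DRG range. The log2 difference was -1.28 ± 0.23 (SE, adjusted p = 0.000165), and the call was lost in the 4 DRG and 6 NG samples whose numbers were absent from MG-U74Av2 (adjusted p = 0.0956).

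Sema6d, a transmembrane semaphorin that can also serve as a receptor, ran from 453 through 590 to 861 in DRG and from 185 through 254 to 434 in NG, with no overlap. The difference was -1.18 ± 0.16 (adjusted p = 2.89e-06). The other 2 tested probe sets of Sema6d were dimmer and were not called (0.04 and -0.20), and the MG-U74Av2 probe set gave 0.48 ± 0.20 in captured neurons (adjusted p = 0.101) and -0.12 ± 0.24 in whole ganglia (adjusted p = 0.748). A DRG excess of Sema6d therefore rests on 1 probe set.

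Sema4a, a transmembrane semaphorin known from T cell signalling, ran from 194 through 336 to 538 in DRG and from 112 through 154 to 298 in NG, with overlap (-0.93 ± 0.17, adjusted p = 0.000189). Its probe set is of a design that may cross-hybridise, and a second one gave -0.40 (adjusted p = 0.124). On MG-U74Av2, captured DRG neurons read 126, 138, 148, 171 and 233 and captured NG neurons 34.5, 64.2, 67.5, 110 and 178. The ranges overlap through the highest NG sample. That difference was -0.91 ± 0.31 (adjusted p = 0.0493), and it kept its call in 2 of the 10 fits that left out 1 array, those without NG 008 or NG 010, with an adjusted p of up to 0.118 in the other fits. In whole ganglia Sema4a was not called (0.33 ± 0.16, adjusted p = 0.121).

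Sema3f, a secreted repellent that signals through neuropilins, averaged 525 ± 209 (SD, n = 9) in DRG and 298 ± 139 (n = 11) in NG by a probe set that may cross-hybridise. The difference was -0.83 ± 0.23 (adjusted p = 0.00926), and its other tested probe set was not called (0.13). Sema3c, a secreted cue needed in heart and vessel formation, averaged 57.6 ± 21.8 in DRG and 106 ± 24.1 in NG (0.87 ± 0.21, adjusted p = 0.00259). Sema3b, a secreted cue with a role in midline crossing, averaged 228 ± 63.2 and 329 ± 91 (0.52 ± 0.17, adjusted p = 0.0333). All 3 were lost in the samples absent from MG-U74Av2, with adjusted p of 0.135, 0.086 and 0.0933.

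Sema4b and Sema6c were called on MG-U74Av2 and not on Mouse430_2. Sema4b, a transmembrane semaphorin, read 345, 367, 368, 373 and 428 in captured DRG neurons and 421, 817, 1003, 1185 and 1201 in captured NG neurons. Only NG 003 came within the DRG range. The log2 difference was 1.19 ± 0.24 (adjusted p = 0.00226), and in whole ganglia it was 0.65 ± 0.13 (adjusted p = 0.000953). The probe set is of a family-wide design that may read related transcripts. A second Sema4b probe set gave 0.36 and 0.32, neither called, and on Mouse430_2 the gene stood at 0.26 ± 0.17 (adjusted p = 0.322).

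Sema6c, a transmembrane semaphorin, read 85, 88.5, 91.5, 122 and 134 in captured DRG neurons and 29, 30.7, 33.6, 34.7 and 105 in captured NG neurons. Of the NG samples, only NG 007 reached the DRG range. The difference was -1.12 ± 0.28 (adjusted p = 0.00992). The probe set passed the filter on 6 arrays, those of DRG and NG 007. It was thus tested through the group where it is higher. Without NG 007 the difference was -1.40, set against NG levels below the filter. In whole ganglia Sema6c averaged 107 ± 23.8 in DRG and 70.4 ± 25.2 in NG (-0.57 ± 0.21, adjusted p = 0.0476). That call was kept in 4 of the 12 fits that left out 1 array, and it was lost without any one of DRG 019, 037, 070 or 084 or NG 020, 036, 046 or 073 (highest adjusted p = 0.122). On Mouse430_2 the difference was -0.34 ± 0.29 (adjusted p = 0.448).

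The plexins, which carry semaphorin signals into the cell, held Plxna2, the member with the largest DRG excess on Mouse430_2 by the brightest probe set of each gene. Other single probe sets of Epha4 (-3.40, with a mean of 10.2 in NG) and Nrp1 (-2.24) went further. On Mouse430_2 all 9 plexin genes were tested, of which 3 were higher in DRG, 1 was higher in NG and 5 were not called. Among all genes tested on that array, the shares called were 13.6% for a DRG excess and 13% for an NG excess. The plexins with a DRG excess beside Plxna2 were Plxnc1 and Plxnd1.

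Plxna2, a plexin that carries secreted semaphorin signals with neuropilins and also binds transmembrane class 6 members, separated the ganglia in every experiment. On Mouse430_2 it ran from 671 through 872 to 1202 in DRG and from 114 through 221 to 275 in NG. All 4 of its probe sets were called higher in DRG, with differences from -1.54 to -2.23, and the brightest gave -2.16 ± 0.16 (adjusted p = 7.67e-11).

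Whole DRG read 209, 214, 223, 260 and 285 for Plxna2, and whole NG ran from 60.6 through 93.1 to 106 (-1.37 ± 0.14, adjusted p = 7.76e-07). Captured DRG neurons on MG-U74Av2 read 275, 279, 302, 378 and 460, and captured NG neurons 8.19, 76.8, 76.9, 81.4 and 94.3. No NG sample reached a DRG sample in any of the 3. The captured difference was -2.34 ± 0.38 (adjusted p = 0.000503), and without the lowest sample, NG 008, it was -1.88 (adjusted p = 7.77e-06).

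Plxnc1, the receptor of Sema7a, ran from 1525 through 1648 to 2175 in DRG and from 396 through 640 to 951 in NG on Mouse430_2, with no overlap. The difference was -1.32 ± 0.14 (adjusted p = 3.56e-08), and all 3 of its tested probe sets were called higher in DRG. Plxnc1 and its ligand Sema7a were thus both higher in DRG on this array. The MG-U74Av2 array did not hold a single-symbol probe set for Plxnc1.

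Plxnd1, a plexin best known from blood vessels, ran from 214 through 252 to 377 in DRG and from 89.9 through 110 to 248 in NG on Mouse430_2, with overlap (-1.01 ± 0.18, adjusted p = 0.000109). Captured DRG neurons on MG-U74Av2 read 887, 1007, 1084, 1108 and 1159, and captured NG neurons 380, 401, 487, 556 and 690. Here the groups did not overlap (-1.07 ± 0.16, adjusted p = 0.00028). In whole ganglia the difference was -0.40 ± 0.17 (adjusted p = 0.0713).

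Plxna3, a co-receptor for secreted semaphorins, was higher in NG by a small margin, with means of 116 ± 26.3 and 164 ± 39.9 (0.47 ± 0.16, adjusted p = 0.0352). Its second probe set was not called, and the call was lost on deposited values (adjusted p = 0.282), without the filter (0.0528), with all probe sets averaged (0.375) and in the samples absent from MG-U74Av2 (0.188). Plxnb2, a receptor of class 4 semaphorins, was called in whole ganglia only, where DRG read 108, 109, 138, 139 and 155 and NG ran from 142 through 195 to 230. The ranges overlap between the highest DRG and lowest NG sample (0.53 ± 0.13, adjusted p = 0.00427), and on unscaled deposited values the call was lost (adjusted p = 0.608).

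Of the neuropilins, Nrp1, which binds secreted semaphorins and also a vascular growth factor, was higher in DRG in each comparison by its brightest probe set. Whole DRG read 2354, 2402, 2425, 2769 and 2929, and whole NG ran from 851 through 1129 to 1401, with no overlap (-1.17 ± 0.11, adjusted p = 2.79e-07). A dimmer probe set of Nrp1 was not called there (-0.18, adjusted p = 0.419). Captured DRG neurons on MG-U74Av2 read 2688, 3682, 4049, 4063 and 4495, and captured NG neurons 2056, 2436, 2766, 2970 and 3089. Only DRG 003 came within the NG range.

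The captured difference of Nrp1 was -0.50 ± 0.15 (adjusted p = 0.0228), and -1.40 by the dimmer probe set (adjusted p = 0.00054). The call of the brighter one was lost without DRG 008, DRG 010, DRG 014 or NG 003, with adjusted p of 0.0506 to 0.0642. On Mouse430_2 the brightest probe set ran from 1391 through 2051 to 2229 in DRG and from 1277 through 1498 to 1985 in NG (-0.32 ± 0.10, adjusted p = 0.0197), while 2 dimmer probe sets gave -2.24 and -1.46. The size of the Nrp1 difference thus depends on the probe set. With every array set to the same median, the brightest was not called (adjusted p = 0.37). Nrp2, the other neuropilin, was not called (-0.22 ± 0.18, adjusted p = 0.438), although 1 of its 4 probe sets was (-0.61, adjusted p = 0.0294).

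**Figure D2:**
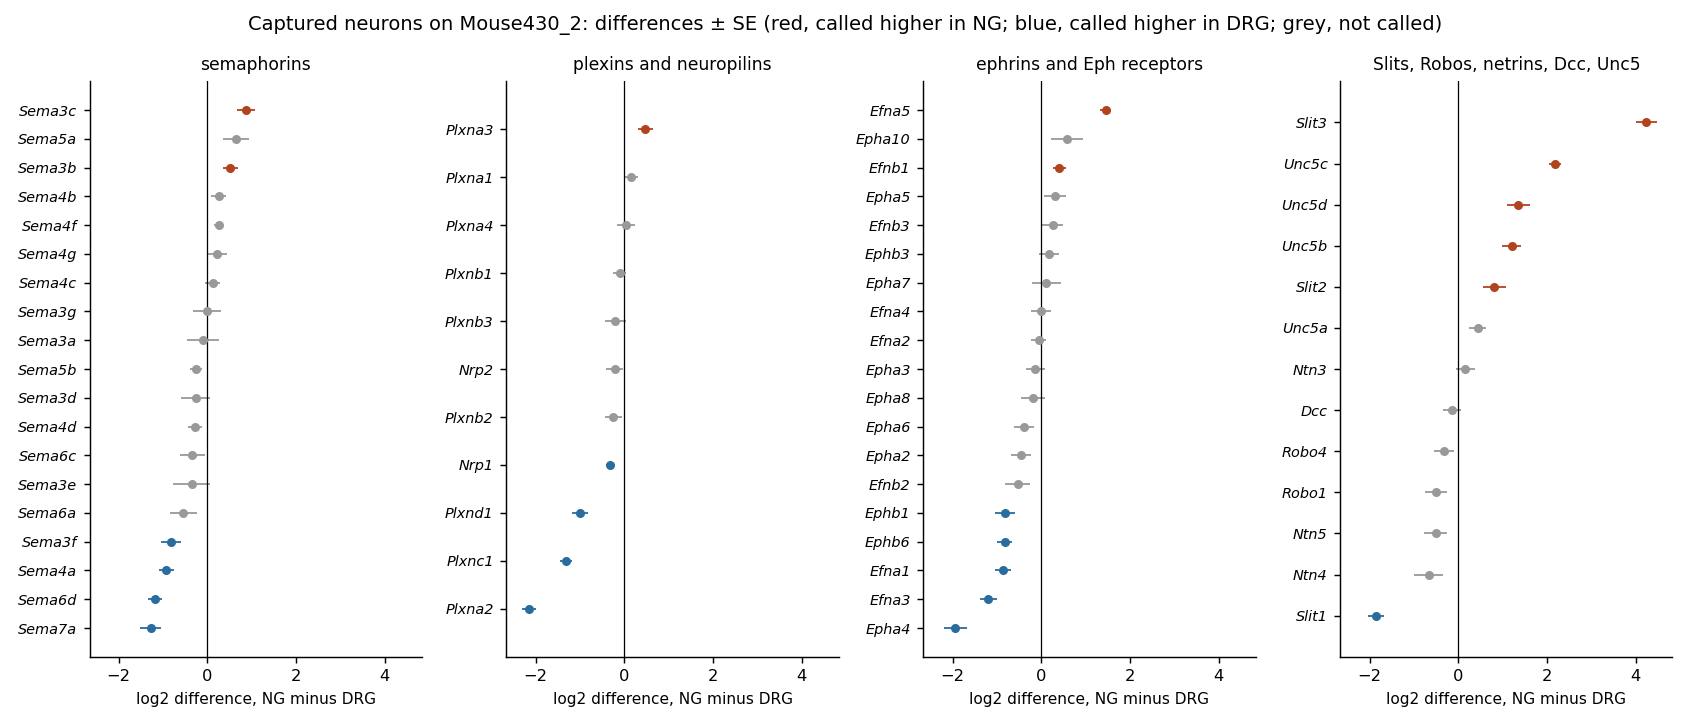
Log2 difference of NG minus DRG with its SE for each member tested on Mouse430_2, in panels for the 19 semaphorins, the 11 plexins and neuropilins, the 19 ephrins and Eph receptors, and the 13 Slits, Robos, netrins, Dcc and Unc5 receptors. Red points were called higher in NG, blue points higher in DRG, and grey points were not called; the Slit and Unc5 panel spans the widest range, from -1.86 for Slit1 to 4.25 for Slit3.

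Ephrin ligands split by member, and the called Eph receptors on Mouse430_2 were higher in DRG, although Epha5 was called higher in NG in whole ganglia. All 8 ephrins were tested on Mouse430_2. Efna5 and Efnb1 were higher in NG, Efna1 and Efna3 were higher in DRG and 4 were not called. Of all genes there, 13% were higher in NG and 13.6% in DRG. Of 13 Eph receptors, 11 were tested, 3 were higher in DRG and 8 were not called, a share close to the 26.6% of all genes.

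Efna5, an ephrin-A known for topographic mapping, ran from 315 through 523 to 727 in DRG and from 1096 through 1476 to 1630 in NG, with no overlap. The difference was 1.46 ± 0.13 (adjusted p = 1.06e-09). Its MG-U74Av2 probe set was too dim to test, with means of 3.55 to 8.81 in the 4 groups.

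Efna1, an ephrin-A also known from vessels and epithelia, read 157, 163, 189, 211 and 257 in whole DRG and from 56.9 through 82.1 to 119 in whole NG. Captured DRG neurons read 208, 209, 223, 239 and 259, and captured NG neurons 67, 68.2, 76, 78.4 and 103. Neither pair of groups overlapped. The differences were -1.06 ± 0.16 (adjusted p = 7.86e-05) and -1.42 ± 0.15 (adjusted p = 1.3e-05).

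On Mouse430_2 Efna1 ran from 103 through 129 to 173 in DRG and from 36.6 through 68.3 to 116 in NG (-0.87 ± 0.18, adjusted p = 0.00053), with some overlap. In the samples absent from MG-U74Av2 its adjusted p was 0.0659. Efna3, another ephrin-A, ran from 78.8 through 93.6 to 141 in DRG and from 25 through 40.3 to 93.4 in NG (-1.19 ± 0.19, adjusted p = 3.32e-05), and both of its probe sets were called. On MG-U74Av2 Efna3 was not called, at 0.14 ± 0.16 (adjusted p = 0.535) in whole ganglia and 0.19 ± 0.19 (adjusted p = 0.496) in captured neurons, and the whole-ganglion value turned to -0.21 on unscaled deposited values.

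Efnb1, a transmembrane ephrin, was higher in NG by 0.41 ± 0.14 (adjusted p = 0.0374), with means of 196 ± 43 and 263 ± 47.1, but its other 2 probe sets gave -0.13 and -0.10 and were not called. Efnb2, a transmembrane ephrin that marks arteries, was called in whole ganglia only, at 220 ± 16.4 in DRG and 176 ± 20.8 in NG (-0.31 ± 0.11, adjusted p = 0.0325). That call was kept in 4 of the 12 fits that left out 1 array and was lost without DRG 019, 037, 070 or 084 or NG 020, 023, 036 or 039 (highest adjusted p = 0.0863). Efna2, Efna4 and Efnb3 were not called in any comparison in which they were tested.

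Epha4, a receptor that binds both ephrin classes, ran from 59.8 through 95.2 to 265 in DRG and from 8.15 through 23.6 to 50 in NG on Mouse430_2, with no overlap (-1.94 ± 0.27, adjusted p = 4.17e-06). All 3 of its tested probe sets were called higher in DRG, at -0.93, -1.94 and -3.40. The -3.40 probe set averaged 184 in DRG and 10.2 in NG, and the -0.93 one 41.8 and 17.4. The sizes of these differences therefore rest on dim NG signal. The MG-U74Av2 probe set gave no call in captured neurons, with means of 49.3 ± 10.2 and 45.7 ± 11.9 (-0.10 ± 0.22, adjusted p = 0.783).

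Ephb1, a receptor of ephrin-B ligands, averaged 143 ± 49.9 in DRG and 78.3 ± 28.6 in NG (-0.82 ± 0.22, adjusted p = 0.00713), and its adjusted p in the samples absent from MG-U74Av2 was 0.514. Ephb6, an Eph protein without kinase activity, averaged 74.2 ± 16.8 and 38.8 ± 10.6 (-0.83 ± 0.17, adjusted p = 0.000496). In whole ganglia Ephb6 was 326 ± 33.7 in DRG and 169 ± 28.3 in NG with no overlap (-0.91 ± 0.13, adjusted p = 2.67e-05), while a dimmer probe set gave 0.35 (adjusted p = 0.0667), and in captured neurons on MG-U74Av2 it was not called (-0.67 ± 0.24, adjusted p = 0.0628; 0.08 by the dimmer probe set).

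Epha5, a receptor of ephrin-A ligands, was called in whole ganglia only. Whole DRG read 69.9, 77.3, 78.8, 81.9 and 83.5, and whole NG ran from 132 through 210 to 259. Every NG sample exceeded every DRG sample (1.23 ± 0.15, adjusted p = 5.56e-06). Captured DRG neurons on the same array read 102, 144, 145, 146 and 167 and captured NG neurons 78.6, 115, 119, 213 and 259, which overlap (0.05 ± 0.27, adjusted p = 0.927), and on Mouse430_2 the difference was 0.31 ± 0.25 (adjusted p = 0.433).

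Among Slits and Robos the 3 ligands diverged. Slit3 and Slit2 were higher in NG and Slit1 was higher in DRG on Mouse430_2, the only array that held them with a single-symbol probe set. Of the 4 Robo receptors, Robo1 (-0.51 ± 0.25, adjusted p = 0.163) and Robo4, an endothelial member (-0.32 ± 0.22, adjusted p = 0.335), were tested and not called, and Robo2 and Robo3 were too dim to test.

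Slit3 ran from 68.5 through 242 to 441 in NG neurons, with a mean of 238 ± 111. In DRG neurons it ran from 1.89 through 3.69 to 7.70, below the filter on every array, so that it was tested through the 11 NG arrays alone. The groups were far apart. The difference was 4.25 ± 0.25 (adjusted p = 4.99e-13). Its size depends on the pseudocount, at 5.41 with a pseudocount of 1 and 3.18 with one at the 40th percentile, since the DRG level may be background.

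Slit1 ran from 603 through 736 to 975 in DRG and from 114 through 179 to 389 in NG, with no overlap (-1.86 ± 0.18, adjusted p = 7.32e-09). Both of its probe sets were called higher in DRG. Slit2 ran from 23.6 through 73.2 to 122 in DRG and from 70.7 through 121 to 268 in NG, with wide overlap (0.81 ± 0.26, adjusted p = 0.0216), and on unscaled deposited values it was not called (adjusted p = 0.11).

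Among netrins and their receptors, 3 of the 4 Unc5 genes were higher in NG on Mouse430_2 and none was higher in DRG. Of all genes there, 13% were higher in NG and 13.6% in DRG. Unc5 receptors turn netrin attraction into repulsion and can trigger cell death when no netrin is bound. Of the 9 genes of this group 8 were tested on Mouse430_2, of which 5 were not called.

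Unc5c read 146, 172, 181, 187 and 189 in whole DRG and ran from 601 through 676 to 841 in whole NG. Captured DRG neurons on MG-U74Av2 read 197, 235, 265, 309 and 353, and captured NG neurons 853, 948, 986, 996 and 1070. On Mouse430_2 it ran from 148 through 206 to 390 in DRG and from 867 through 1086 to 1213 in NG. The ganglia were separated without overlap each time.

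The log2 differences of Unc5c were 1.90 ± 0.11 (adjusted p = 5.41e-10) in whole ganglia, 1.82 ± 0.16 (adjusted p = 1.57e-06) in captured neurons on MG-U74Av2 and 2.19 ± 0.14 (adjusted p = 5.34e-12) on Mouse430_2. Unc5b, a member also known from vessels, ran from 146 through 182 to 245 in DRG and from 131 through 453 to 743 in NG (1.20 ± 0.22, adjusted p = 0.000182). NG 003 lay below every DRG sample, and the other 10 NG samples lay above them all. Its second probe set was not called (0.27, adjusted p = 0.297).

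Unc5d, the remaining called member, ran from 44.4 through 79 to 172 in DRG and from 69.2 through 264 to 342 in NG, with overlap (1.36 ± 0.26, adjusted p = 0.000249). Unc5a, a neural member, was dim and was not called, with means of 23.4 ± 7.19 and 34.6 ± 10 (0.44 ± 0.19, 95% interval 0.05 to 0.83, adjusted p = 0.0985), although quantile normalization gave an adjusted p of 0.0269. Dcc, the attractive netrin receptor, was also not called, at 44.4 ± 14.9 in DRG and 39.9 ± 14.3 in NG (-0.14 ± 0.20, 95% interval -0.55 to 0.27, adjusted p = 0.685). Netrins are the ligands of these receptors. Ntn3, Ntn4 and Ntn5 were tested on Mouse430_2 and not called, and Ntn1, the founding attractant, was tested on MG-U74Av2 and not called in whole ganglia (0.20 ± 0.15, adjusted p = 0.314) or captured neurons (0.11 ± 0.19, adjusted p = 0.726).

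**Figure D3:**
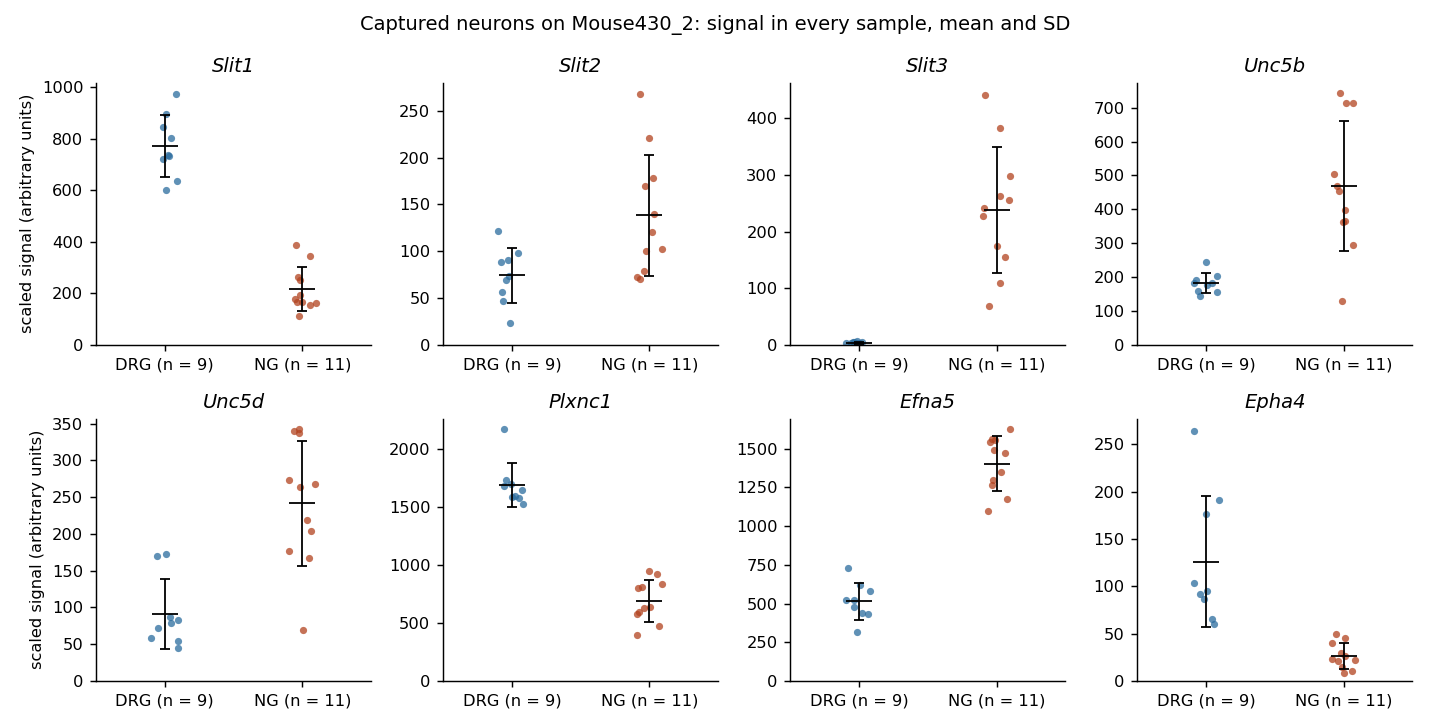
Scaled signal of captured neurons on Mouse430_2 in every sample (points) with mean and SD (bars) for 8 members, DRG (n = 9) beside NG (n = 11). Slit1, Plxnc1 and Epha4 sit higher in DRG and Slit3 and Efna5 higher in NG without overlap, while Slit2, Unc5b and Unc5d are higher in NG with overlapping ranges.

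Promoters are shown for Unc5c and Slit3 (higher in NG) and Plxna2 (higher in DRG), whose brightest probe sets had the largest differences in each direction on Mouse430_2, that of Slit3 against a DRG level below the filter. Each runs from 250 bases before to 50 bases after the RefSeq start on GRCm38.p6, written 5′ to 3′ along the gene's strand, and capitals mark the GC box GGGCGG on either strand.
Unc5c: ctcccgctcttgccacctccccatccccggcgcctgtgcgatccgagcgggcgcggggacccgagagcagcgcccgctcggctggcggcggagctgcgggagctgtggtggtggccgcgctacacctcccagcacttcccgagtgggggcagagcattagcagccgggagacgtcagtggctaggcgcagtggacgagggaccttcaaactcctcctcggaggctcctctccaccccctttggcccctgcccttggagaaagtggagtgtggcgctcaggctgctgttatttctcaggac
Slit3: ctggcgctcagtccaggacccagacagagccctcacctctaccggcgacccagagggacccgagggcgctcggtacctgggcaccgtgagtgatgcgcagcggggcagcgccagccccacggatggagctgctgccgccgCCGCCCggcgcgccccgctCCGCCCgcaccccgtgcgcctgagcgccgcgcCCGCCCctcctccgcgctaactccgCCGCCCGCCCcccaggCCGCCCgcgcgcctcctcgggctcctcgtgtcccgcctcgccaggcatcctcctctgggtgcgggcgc
Plxna2: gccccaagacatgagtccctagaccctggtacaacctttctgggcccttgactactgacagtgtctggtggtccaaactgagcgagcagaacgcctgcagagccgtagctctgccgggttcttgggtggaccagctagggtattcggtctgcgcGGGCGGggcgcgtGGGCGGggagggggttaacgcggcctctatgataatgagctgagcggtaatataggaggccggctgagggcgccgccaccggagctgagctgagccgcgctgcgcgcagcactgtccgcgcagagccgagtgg
They lie at chr3:141465314-141465613 (plus strand), chr11:35121206-35121505 (plus strand) and chr1:194619579-194619878 (plus strand). The Slit3 window held 6 GC boxes, that of Plxna2 held 2 and that of Unc5c held 0. Over the 74 promoters listed for 58 of the 69 members, 71.6% held a GC box, against 35.7% of all 32851 promoters of the same length. Of the promoters of members called on Mouse430_2, 6 of 8 for genes higher in NG and 15 of 18 for genes higher in DRG held one. The TATA box TATAAA, on either strand, was found in 2 of the 74, or 2.7%, and in 13.6% of all promoters. The homeodomain core TAATTA was found in 3 of the 74, or 4.05%, and in 5.29% of all. The E box CAGCTG was found in 12 of the 74, or 16.2%, and in 16.3% of all. Both strands were searched, and matches of different motifs may overlap. These matches describe letters in a window and were not tested against the expression differences.

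Side by side, 22 members were tested in all 3 comparisons of NG with DRG. Between whole ganglia and captured neurons on MG-U74Av2, 23 members were tested in both, of which 2 were called higher in NG in both and 4 higher in DRG in both, beside 5.07% and 4.93% of all genes. Between the captured experiments 23 members were tested in both, of which 1 was called higher in NG in both and 5 higher in DRG in both, beside 7.04% and 7.17% of all genes and these experiments share sample numbers. No pair of calls was opposed in these comparisons. Between the captured experiments, 2 were called on MG-U74Av2 alone and 7 on Mouse430_2 alone.

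**Figure D4:**
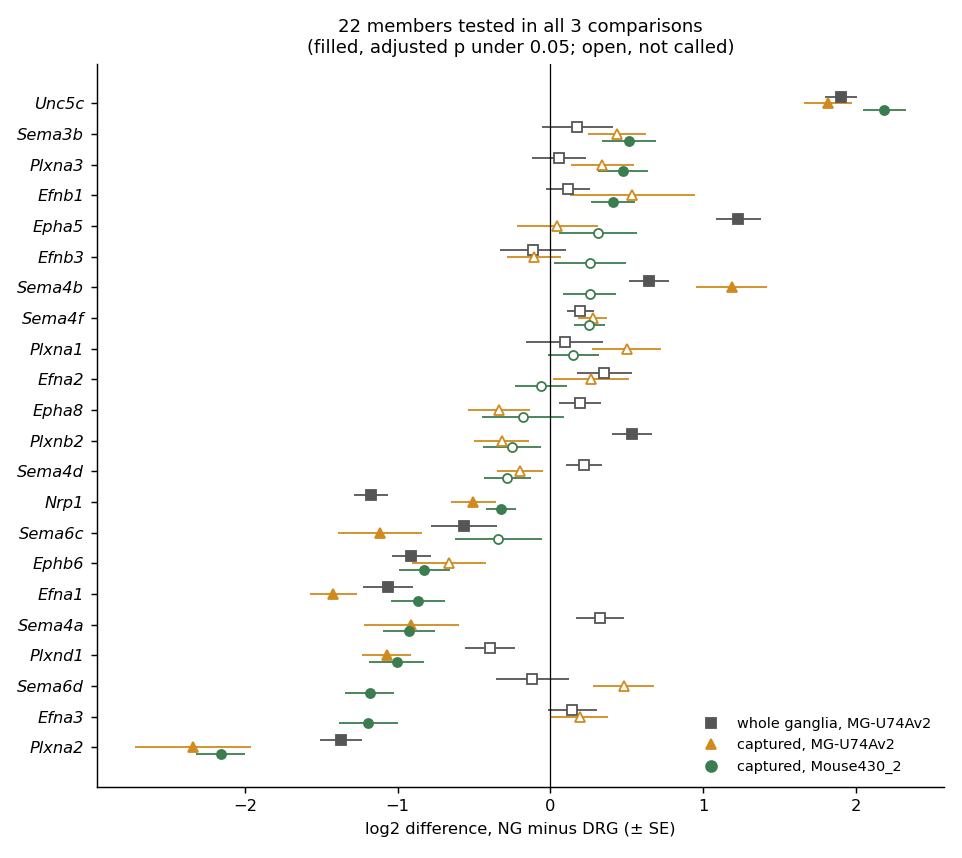
Log2 difference of NG minus DRG with its SE for the 22 members tested in whole ganglia (squares), captured neurons on MG-U74Av2 (triangles) and captured neurons on Mouse430_2 (circles); filled symbols were called. Unc5c lies near 2 in each, Plxna2, Efna1 and Nrp1 lie below 0 in each, and Efna3 and Sema6d differ between the array types.

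Captured neurons were compared with whole ganglia within each ganglion on MG-U74Av2, where 30 members were tested in 1 fit of the 4 groups. The membrane semaphorins Sema4b, Sema4d and Sema4f, with Efnb3 and Unc5c, were higher in captured neurons of both ganglia, and Sema3b, Sema3e and Efnb2 were lower in both. For Nrp1 and Ephb6 the probe sets disagreed in direction. In DRG, 10 members were higher in captured neurons and 5 were lower, with 48.3% of all genes called, 22.9% higher and 25.4% lower. In NG, 9 were higher and 6 were lower, with 56.3% called, 26% higher and 30.3% lower. The NG split was 8 higher and 3 lower with quantile normalization and 10 higher and 3 lower with every array set to the same median. Capture, amplification of the RNA and the experiment cannot be told apart in these contrasts.

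Sema3b averaged 708 ± 223 in whole DRG and 178 ± 52.9 in captured DRG neurons, and 798 ± 218 and 238 ± 24 in NG. The captured minus whole differences were -1.91 ± 0.23 (adjusted p = 2.09e-07) and -1.65 ± 0.21 (adjusted p = 3.51e-07). A second Sema3b probe set was called in the same direction. Sema3e, a secreted ligand of Plxnd1, averaged 82.9 ± 8.75 in whole DRG and 44.2 ± 19 in whole NG, and 8.89 and 16.5 in captured DRG and NG neurons. No captured array passed the filter for Sema3e, so that it was tested only through the whole ganglia where it is higher, and the size of its change is not given. Efnb2, which passed the filter on 4 of the 10 captured arrays, averaged 220 and 45.2 in DRG (-2.23 ± 0.34, adjusted p = 7.06e-06) and 176 and 18.3 in NG (-2.91 ± 0.32, adjusted p = 2.26e-08). Captured NG samples other than NG 003 (59.2) read 5.27 to 14.4. The size in NG therefore rests on levels below the filter.

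Sema4f, a transmembrane semaphorin, averaged 1562 ± 123 in whole and 2846 ± 255 in captured DRG (0.86 ± 0.09, adjusted p = 2.73e-08), and 1795 ± 152 and 3446 ± 262 in NG (0.94 ± 0.08, adjusted p = 8.26e-10). Unc5c differed by 0.58 ± 0.13 in DRG (adjusted p = 0.000785) and 0.50 ± 0.12 in NG (adjusted p = 0.00133). Efnb3, a transmembrane ephrin, differed by 0.70 ± 0.22 (adjusted p = 0.0102) and 0.71 ± 0.20 (adjusted p = 0.00442), and a second probe set was not called (-0.23 and -0.04). Sema4b was called by 1 of its 3 tested probe sets (0.59 in DRG and 1.12 in NG).

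The brighter Nrp1 probe set differed by 0.54 ± 0.14 in DRG (adjusted p = 0.00193) and 1.21 ± 0.13 in NG (adjusted p = 1.12e-08), and the dimmer by -1.21 ± 0.19 (adjusted p = 1.3e-05) and -2.43 ± 0.18 (adjusted p = 2.73e-11). The brighter Ephb6 probe set differed by -0.68 ± 0.20 (adjusted p = 0.00633) and -0.43 ± 0.18 (adjusted p = 0.0493), and the dimmer by 0.67 ± 0.18 (adjusted p = 0.00247) and 0.40 ± 0.16 (adjusted p = 0.0375). Neither gene therefore has a settled direction between captured and whole samples. Sema4d, a transmembrane semaphorin that acts through Plxnb1, was higher in captured DRG neurons (0.75 ± 0.14, adjusted p = 7.95e-05) and in captured NG neurons by 0.33 ± 0.13 (adjusted p = 0.0321), the latter lost without captured NG 003, 008 or 010 or whole NG 026, 036 or 039 (highest adjusted p = 0.126).

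Many markers of non-neuronal cells were lower in the captured samples. Of 8 tested fibroblast markers of the ganglion sheath, 5 were lower in captured DRG and 7 in captured NG, with sums of 6759 to 10480 in whole DRG, 2791 to 5906 in captured DRG, 6202 to 10140 in whole NG and 1357 to 3012 in captured NG. Of 10 glial markers, 5 were lower and 2 higher in DRG, and 8 were lower and 1 higher in NG, with sums of 17130 to 20880, 14700 to 17170, 17290 to 21470 and 12550 to 13690 in the same order. Of 10 endothelial and mural markers, 4 were lower in DRG, and 5 were lower and 1 higher in NG. Of 9 neuronal markers, 3 were lower and 3 higher in DRG, and 5 were lower and 4 higher in NG, with a median of -0.57 in NG. The log2 ratio of 3′ to 5′ probe signal of beta actin, a measure of truncated RNA, averaged 2.80 ± 0.08 in whole DRG, 2.94 ± 0.40 in whole NG, 5.45 ± 0.18 in captured DRG and 5.82 ± 0.23 in captured NG. The part of these shifts in the members' differences was not tested.

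The interaction of ganglion and capture was called for 5 of the 30 members, with 19.3% of all genes called (8.25% higher and 11.1% lower). Epha5 and Plxnb2 were higher in whole NG than whole DRG but not in captured neurons. For Epha5 the interaction, the captured difference minus the whole one, was -1.19 ± 0.30 (adjusted p = 0.00679). For Plxnb2 it was -0.85 ± 0.22 (adjusted p = 0.00754), with means of 130 and 193 in whole DRG and NG and 264 and 214 in captured ones.

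The second probe set of Plxnb2 gave -0.42 (adjusted p = 0.286). Sema4a had an interaction of -1.23 ± 0.35 (adjusted p = 0.0137), and 0.15 by its second probe set (adjusted p = 0.819), with means of 95.5 and 124 in whole DRG and NG and 163 and 90.8 in captured ones. For Nrp1 the 2 probe sets gave opposite interactions, both called. The brighter gave 0.67 ± 0.19 (adjusted p = 0.0119), a smaller DRG excess in captured neurons, and the dimmer gave -1.22 ± 0.26 (adjusted p = 0.00176), a larger one, so the direction for Nrp1 is not settled. Sema3e had a fitted interaction of 1.25, but it was below the filter on all 10 captured arrays. The captured ganglion difference of Sema3e was therefore not measured, and the fitted value sets the whole-ganglion difference against captured levels below the filter. The excess of Unc5c in NG did not pass this test (-0.09 ± 0.18, adjusted p = 0.79).

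**Figure D5:**
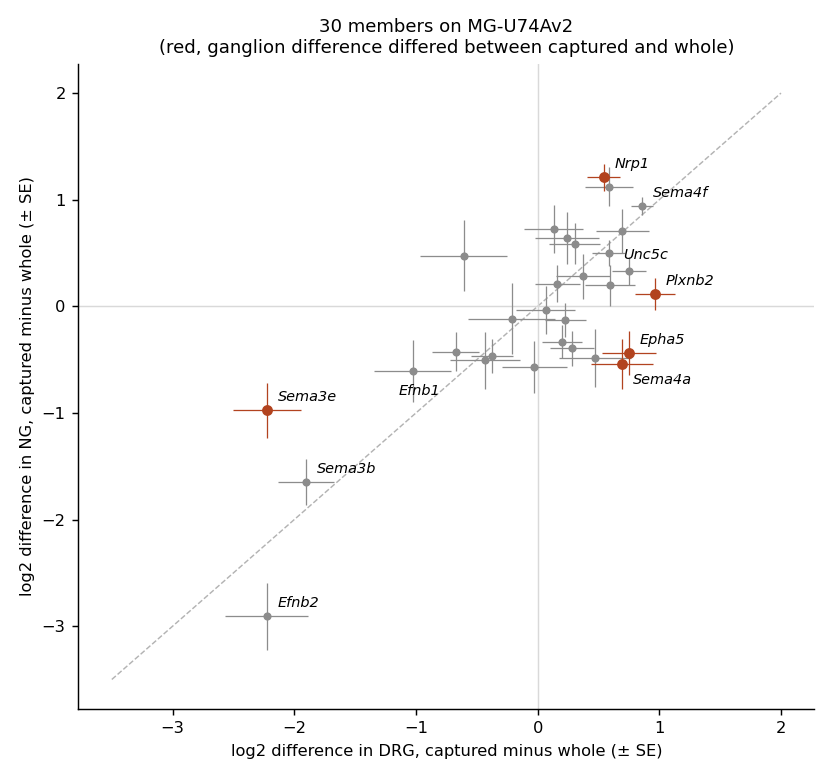
Captured minus whole log2 difference in NG (vertical) against that in DRG (horizontal) with SEs for the 30 members tested on MG-U74Av2, each by its brightest probe set; the dashed line marks equal differences. Sema3b, Sema3e and Efnb2 lie far below 0 on both axes, and the red points, Epha5, Nrp1, Plxnb2, Sema3e and Sema4a, are the members with a called interaction.

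Other genes of the same pathways also differed in both directions. Over all genes tested on Mouse430_2, 13% were higher in NG and 13.6% in DRG. Of 20 tested further guidance ligands and receptors on that array, 4 were higher in NG and 5 in DRG. Those higher in NG included Neo1, a netrin and repulsive guidance receptor related to Dcc (0.82, adjusted p = 4.59e-07), and Flrt3, an Unc5 ligand (1.17, adjusted p = 0.0008). On MG-U74Av2 Neo1 was not called in whole ganglia (0.28, adjusted p = 0.195) or captured neurons (0.36, adjusted p = 0.169). Of the relatives of Flrt3 on Mouse430_2, Flrt1 was higher in DRG (-0.62, adjusted p = 0.0124) and Flrt2 was not called (0.48, adjusted p = 0.558). Of 5 tested co-receptors, 3 were higher in NG and 1, Nrcam, was higher in DRG (-1.06, adjusted p = 2.15e-07). Of 47 cytoplasmic effectors, 9 were higher in NG and 10 in DRG. The latter included Ngef, an exchange factor downstream of Epha4, with means of 133 in DRG and 21.6 in NG (-2.35, adjusted p = 3.49e-07). Vav2, an exchange factor that acts with Eph receptors, was also higher in DRG (-1.78, adjusted p = 9.64e-10). Its relative Vav3 was higher in NG (0.90, adjusted p = 0.0357). In whole ganglia 4 of 22 effectors were higher in NG and 5 in DRG, beside 20.5% and 16.9% of all genes. In captured neurons on MG-U74Av2 these counts were 4 of 22 and 1, beside 10.9% and 11.9% of all genes.

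The remaining members gave no call by their brightest probe sets. In all, 33 members were tested and called in none of the 3 comparisons of NG with DRG. Among them were the axonal repellents Sema3a and Sema3d, the plexins Plxna1 and Plxna4, and the receptors Epha7 and Ephb3. On Mouse430_2 another probe set was called for Sema4f (0.59, adjusted p = 7.29e-05), Sema4d (-0.60, adjusted p = 0.0335) and Nrp2. Sema3a was dim, with means of 30.5 ± 19.9 and 28.5 ± 23.3 on Mouse430_2 (-0.10 ± 0.36, 95% interval -0.84 to 0.63). Differences within that interval were compatible with these values, so the lack of a call does not show equal levels. Plxna4, a receptor used by secreted semaphorins with Nrp1, averaged 125 ± 43.5 and 124 ± 32.9 (0.03 ± 0.20, 95% interval -0.38 to 0.44). The 6 members too dim to test in any comparison were Epha1, Ephb4, Plxna4os1, Robo2, Robo3 and Sema6b.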

How the data were processed

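RNA of 42 samples in 6 groups was read on MG-U74Av2 (22 arrays) and Mouse430_2 (20 arrays). The deposited values are linear MAS5 signal intensities computed by the authors, per the submitters' processing notes, which name no software version. Detection calls were not analysed. Precision is limited by how many arrays each group holds.

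Each array was scaled to a common 2% trimmed mean (253 on MG-U74Av2, 141.2 on Mouse430_2). A pseudocount at the 20th percentile of signal (11.7 for whole ganglia, 11 for captured neurons on MG-U74Av2, 7.48 on Mouse430_2, 11.4 for the fit of 4 groups) was added before taking log2. A probe set was tested where it exceeded its own array's 40th percentile on a number of arrays no lower than the size of the smaller group. Differences of NG and DRG were fitted with limma 3.58.1 under R 4.3.3 (lmFit, then eBayes with its trend and robust options), two-sided, with Benjamini-Hochberg adjustment over all probe sets tested and a threshold of 0.05. Fitting all 4 MG-U74Av2 groups together gave the captured minus whole differences and their interaction. Each gene was represented by its probe set of highest mean log2 signal. The scripts were tested on simulated data. Figures were drawn with matplotlib 3.10.9.

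Members described one by one were those called with a log2 difference of at least 1 in size in any comparison of NG with DRG, those with calls in opposite directions, and those with a called interaction. Other members named with values were chosen after their values were seen. The members and lists were chosen with earlier results of these data known. Promoters come from RefSeq on GRCm38.p6. Alternatives covered scaling, pseudocount, filter, choice of probe sets, array weights, the replicate number as a block, and, outside Mouse430_2, whose groups hold over 5 samples, leaving out each array. Choice of probe sets and array weights were not varied in the fit of 4 groups.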

Additional observations from a re-analysis of the deposited data

Results flagged for a closer look

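In 5 of the 75 groups of samples examined for the members described, 1 sample stood far from the others, where chance alone gives about 1 group in 20. Captured NG neurons of sample NG 008 read 8.19 for Plxna2 on MG-U74Av2, while the other 4 samples lay between 76.8 and 94.3. Captured NG neurons of sample NG 007 read 105 for Sema6c on the same array type, while the others lay between 29 and 34.7. On Mouse430_2, DRG 010 read 2175 for Plxnc1, with the next sample at 1732. DRG 008 read 538 for Sema4a, with the next at 364. DRG 014 read 313 for Sema7a, with the next at 202.

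For 5 members the interaction of ganglion and capture was called in limma. The captured minus whole change of the difference was -1.19 for Epha5, -0.85 for Plxnb2, -1.23 for Sema4a, 0.67 for Nrp1 and 1.25 for Sema3e. A second, dimmer Nrp1 probe set gave -1.22, in the opposite direction and also called, and a second probe set of Plxnb2 (-0.42) and of Sema4a (0.15) was not called. Sema3e was below the filter on all 10 captured arrays, so its captured ganglion difference was not measured. Capture, RNA amplification and experiment cannot be told apart here.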

How the results depend on the processing

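The counts of called members in both directions together stayed within 1.5 times of their values under every alternative run. Counts in 1 direction moved more: those higher in NG from 4 to 2 in whole ganglia and from 10 to 6 on Mouse430_2 on deposited values, those lower in captured NG from 6 to 3 under quantile or same-median scaling, and the lower interactions from 3 to 5 without the filter. Of the called members, 14 of 24 on Mouse430_2, 6 of 8 in captured neurons on MG-U74Av2, 7 of 11 in whole ganglia, 13 of 15 and 10 of 15 in captured against whole DRG and NG, and 5 of 5 interactions kept their call under all alternatives run for that comparison, which on Mouse430_2 did not include leaving out single arrays. The captured against whole and interaction fits were not rerun with averaged probe sets, array weights, deposited values or a stricter filter. Second probe sets did not share the interaction calls of Nrp1, Plxnb2 and Sema4a, as given above, and Sema3e was below the filter on all captured arrays. Over all probe sets, unscaled deposited values gave 4157 calls in place of 6250 on Mouse430_2 and 1089 in place of 1652 in captured neurons on MG-U74Av2. Averaging all probe sets of a gene tests fewer features and gave 3523 on Mouse430_2. The brightest probe set of Sema4f was called on Mouse430_2 with quantile normalization (adjusted p = 0.0257 in limma). The median of all probe sets moved by -0.103 in whole ganglia with every array set to the same median and by -0.34 on deposited values, by 0.136 and -0.122 on Mouse430_2, and by 0.156 and 0.116 for captured minus whole NG and the interaction at the same median.

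Uncalled differences turned sign in some settings, and the cause was not tested. In whole ganglia Efna3 became -0.21 and Sema4a -0.0060 on deposited values, and Sema7a 0.14 with all probe sets averaged. In captured neurons on MG-U74Av2 Epha5 became -0.019 on deposited values and -0.008 with probe sets averaged, and ranged from -0.15 to 0.24 when single arrays were left out; Epha4 ranged from -0.19 to 0.018. On Mouse430_2 Epha5 became -0.25 with probe sets averaged. In the 4 DRG and 6 NG samples whose numbers were absent from MG-U74Av2, Plxnb2 became 0.13, Sema3e 0.31 and Sema6c 0.39. That subset called 16 members, 6 higher in NG and 10 in DRG.

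Samples of DRG and NG with the same number did not deviate together (4 pairs on MG-U74Av2, -0.106 to 0.111, and 7 on Mouse430_2, -0.154 to 0.155), so the number was not taken as a pairing. With the number as a replicate block, 7 members were called on MG-U74Av2, Sema4a being lost (adjusted p = 0.0521 in limma), and 24 on Mouse430_2; captured against whole gave 15 in each ganglion and 5 interactions. No paired analysis was possible for whole ganglia because the groups share 1 number. The number of arrays, dim probe sets and unknown sample sources limit these results.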
